A study of Mus musculus with 6 samples.

Results

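The Hox cluster genes were taken as all probes whose single platform gene symbol is Hoxa, Hoxb, Hoxc or Hoxd followed by a number, which gave 34 probes of 33 genes among 21880 probes listed with a gene (18005 genes with a symbol of their own). The tissue was the heart of mouse embryos at embryonic day 11.5, measured on 6 single-colour CodeLink arrays. In 3 Dicer mutant hearts the Dicer gene had been inactivated with Cre from an Nkx2.5 knock-in line, and 3 control hearts formed the other group. The labels state neither the control genotype nor whether replicate arrays represent different embryos, so p-values measure only the spread between these arrays. A knock-in Cre of this kind acts in the Nkx2-5 lineage, so that other cells of the dissected heart may keep Dicer.

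Hox genes encode homeodomain transcription factors that give cells their position along the body axis. They lie in 4 clusters, and as a rule the genes with low numbers at the 3' end are switched on earlier and further forward than those with high numbers at the 5' end. In the embryonic heart the low-numbered genes are known from the second heart field and from the cardiac neural crest, where retinoic acid activates them. The same clusters carry miRNA genes, whose precursors Dicer cuts into mature miRNAs, and miR-196 is known to direct cleavage of the Hoxb8 mRNA in mouse embryos.

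RefSeq's mouse build GRCm38.p6 places 39 Hox genes on chromosomes 6 (HoxA), 11 (HoxB), 15 (HoxC) and 2 (HoxD), with 6 miRNA genes inside the clusters. The main mature products of those 6 genes are shown because they are the Dicer products encoded beside the members. The sequences are RefSeq's, 5′ to 3′, and capitals mark the seed, bases 2 to 8.
miR-10a-5p: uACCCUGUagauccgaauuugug
miR-10b-5p: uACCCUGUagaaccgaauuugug
miR-196a-5p: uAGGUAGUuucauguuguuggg
miR-196b-5p: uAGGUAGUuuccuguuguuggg
miR-615-3p: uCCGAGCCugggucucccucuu

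Positions are counted from 1 at the 5′ end. The miR-10 pair shares its seed, and miR-10a-5p and miR-10b-5p differ by U12A alone. The miR-196 pair shares another seed and differs by A12C, miR-196a-5p being written before miR-196b-5p. miR-10a-5p lies at chr11:96317186-96317208 on the plus strand, between Hoxb5 and Hoxb4 and inside the long span annotated for Hoxb3. miR-10b-5p lies at chr2:74726074-74726096 on the plus strand, inside the spans of Hoxd3 and Hoxd4. miR-196a-5p comes from a gene between Hoxb13 and Hoxb9 and from another between Hoxc10 and Hoxc9, and miR-196b-5p from one between Hoxa9 and Hoxa10. miR-615-3p lies inside Hoxc5. The levels of these miRNAs were not analysed here.

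Each array held 36227 spots, of which 74.1% to 78.2% were above background. Values are log2 signals after background correction with an added offset of 50, which pulls differences of dim probes towards 0, and quantile normalisation. They are compared only between arrays for 1 probe, never between probes. Dicer1, the targeted gene, read 6.74, 6.73 and 6.68 in the mutant hearts, against 7.82, 7.63 and 7.71 in the control hearts (limma adjusted p = 0.036), and where its probe lies relative to the deleted part is not known here. Of 7 cardiomyocyte markers on the array 6 were above background on all 6 arrays, and Myh6 on 4 of them. The arrays did not sort by group: on a first principal component holding 54.1% of the variance, the mutants lay at -18.3, -30.1 and 5.63, against 37.3, 26.3 and -20.8 for the controls, so that control 3 lay among the mutants. The second component, with 21.6%, set mutant 3 apart at -34.8.

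Of the 33 genes, 19 were above background on all 6 arrays, 5 on some and 9 on none. The low-numbered genes were mostly detected: at positions 1 to 4, 8 of 9 genes reached the 3 arrays above background needed for a test, and at positions 5 to 8, 10 of 11 did. At positions 9 to 13 only 6 of 13 did. Of all listed probes 81.0% reached that number. The 9 genes near background on every array were Hoxb4, Hoxa6, Hoxa9, Hoxb9, Hoxc9, Hoxa10, Hoxa11, Hoxd11 and Hoxa13. Detection depends on the probe as well as on the transcript, and every gene except Hoxd13 had 1 probe.

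**Figure D1:**
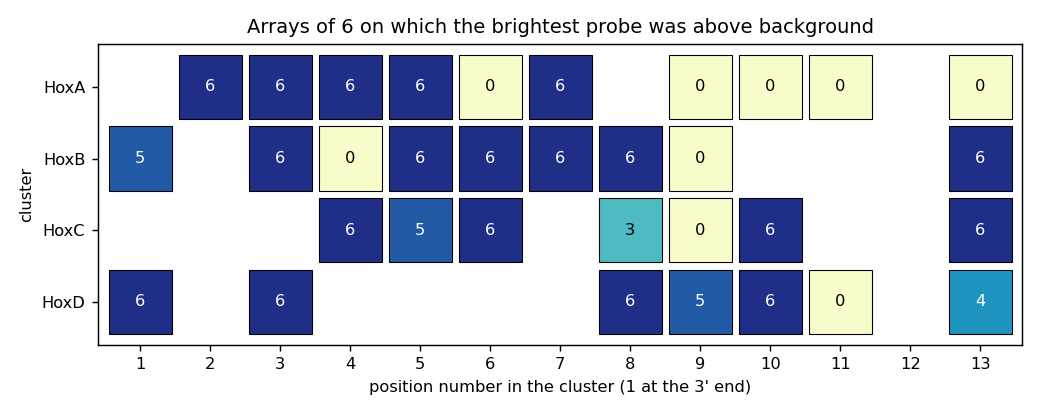
Map of the 33 Hox genes by cluster (rows) and position number (columns); the number and shade in each square give the arrays, of 6, on which the gene's brightest probe was above background. Squares at 0 lie mostly at positions 9 to 13, and HoxA has none detected from position 9 on, while Hoxb13, Hoxc10, Hoxc13 and Hoxd10 were above background on all 6 arrays; blank places have no gene or no probe of its own.

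The posterior genes that were detected came from 3 of the 4 clusters. Hoxb13, known from the tail bud and the prostate, Hoxc10, known from lumbar motor neurons and hindlimb, Hoxc13, a regulator of hair keratins, and the limb gene Hoxd10 were above background on every array. Hoxd9 was near background in mutant 3 alone. The brighter probe of Hoxd13, a digit gene, was above background on 4 arrays, near it in mutant 1 and control 1, and its other probe on 0. Hoxb1 and Hoxc5 were near background in mutant 1 alone, and Hoxc8 in mutant 3, control 1 and control 2. No gene was detected throughout one group and near background throughout the other. No Hox probe was saturated, and the Hoxd1 spot of control 2 carried a mark for irregular shape.

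The comparison of mutant with control hearts asks which transcripts differ in level when Dicer is inactivated in the developing heart. No Hox gene passed limma's test: 0 of 24 had a Benjamini-Hochberg adjusted p under 0.05, against 0.0508% of all 17727 probes tested (9 probes). Adjusted p ran from 0.469 to 0.999. Without adjustment, 1 of 24 had a p under 0.05, Hoxb6, against 10.0% of all probes. Hoxb6 was also the 1 gene of 24 whose groups did not overlap, against 15.2% of probes in either direction and 9.89% with the mutant higher. With the mutant lower there was no such gene, against 5.28% of probes. The difference was above 0 in 10 genes and below 0 in 14, with a median of -0.023 beside 0.015 for all probes tested, of which 53.3% lay above 0. By these counts the Hox genes were called no more often than the whole table.

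A miss of the threshold does not show equal levels, so the intervals are given. The 95% interval of the difference stayed within a 1.5-fold change either way in 16 of 24 genes, against 67.7% of all probes, and within 2-fold in 22, against 90.8%. The exceptions at 2-fold were Hoxa5 and Hoxb13, whose arrays differed widely within a group. These values carry the added offset, which shrinks differences of dim probes, so the intervals can understate changes of dim genes. Hoxb1, near background in mutant 1, counted as within 1.5-fold with a difference of -0.26. It was at -0.65 with the subtracted intensity and -0.79 with the authors' normalized intensity, both beyond 1.5-fold. Hoxc8 and Hoxd13 gave 0.19 and -0.13 with the former, and 0.017 and -0.18 with the latter. The median within-group SD was 0.152 for the Hox genes and 0.164 for all probes tested.

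**Figure D2:**
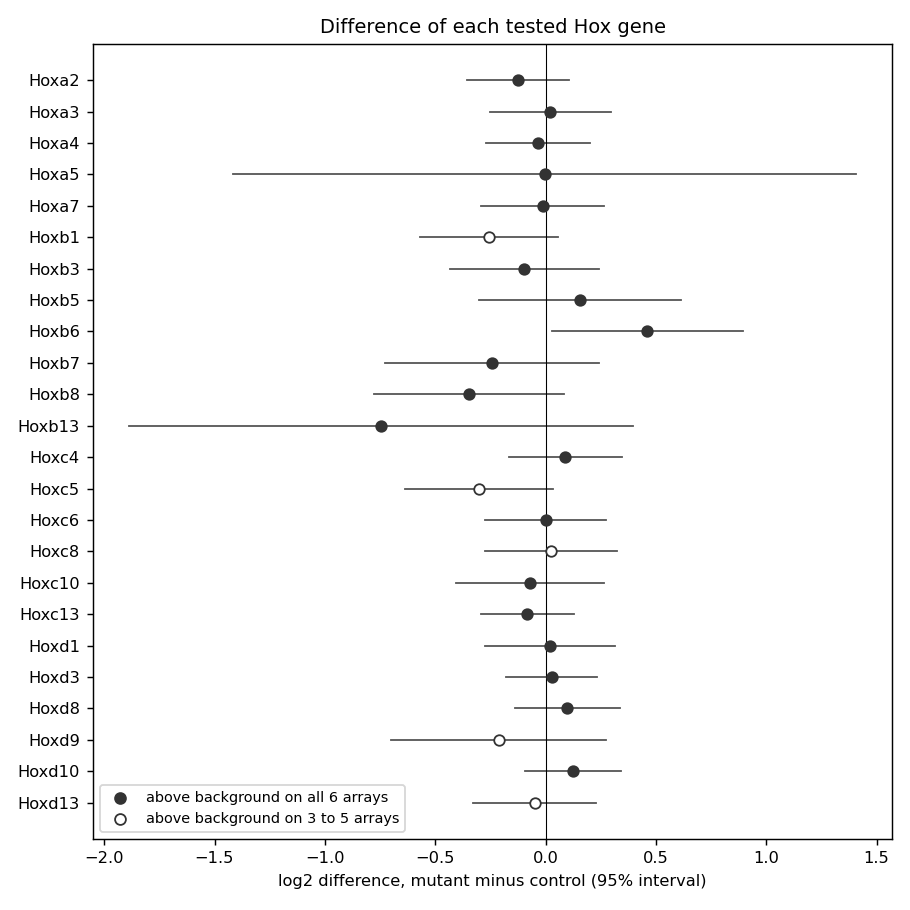
Log2 difference, mutant minus control, with its 95% interval (limma, 3 arrays per group) for each of the 24 tested Hox genes, ordered by cluster and position; open circles mark genes above background on 3 to 5 arrays. Hoxb6, at 0.46, is the one interval that stays above 0, and Hoxa5 and Hoxb13 have the widest.

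Among the anterior genes, Hoxa2, which patterns the second pharyngeal arch, read 6.71, 6.95 and 6.81 in the mutant hearts, against 6.90, 6.96 and 6.98 in the control hearts. Its difference was -0.13 ± 0.10 (SE), with mutant 2 inside the range of the controls. Hoxa3, needed for the thymus, parathyroid and other derivatives of the third arch, read 8.39, 8.20 and 8.31 in the mutants, against 8.42, 8.32 and 8.11 in the controls. The groups overlapped almost fully, and the 95% interval ran from 0.84-fold to 1.23-fold. Hoxb3 read 10.98, 11.16 and 11.37 in the mutants, against 11.18, 11.46 and 11.15 in the controls, a difference of -0.096 ± 0.14. Hoxb1, a retinoic acid target of the hindbrain and the second heart field, read 6.02, 6.34 and 6.33 in the mutants, against 6.57, 6.57 and 6.31 in the controls. It had a difference of -0.26 ± 0.13 (adjusted p = 0.565), with control 3 among the mutants. The remaining anterior genes gave small differences: -0.034 for Hoxa4, 0.089 for Hoxc4, 0.019 for Hoxd1 and 0.028 for Hoxd3. Their arrays overlapped between the groups.

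**Figure D3:**
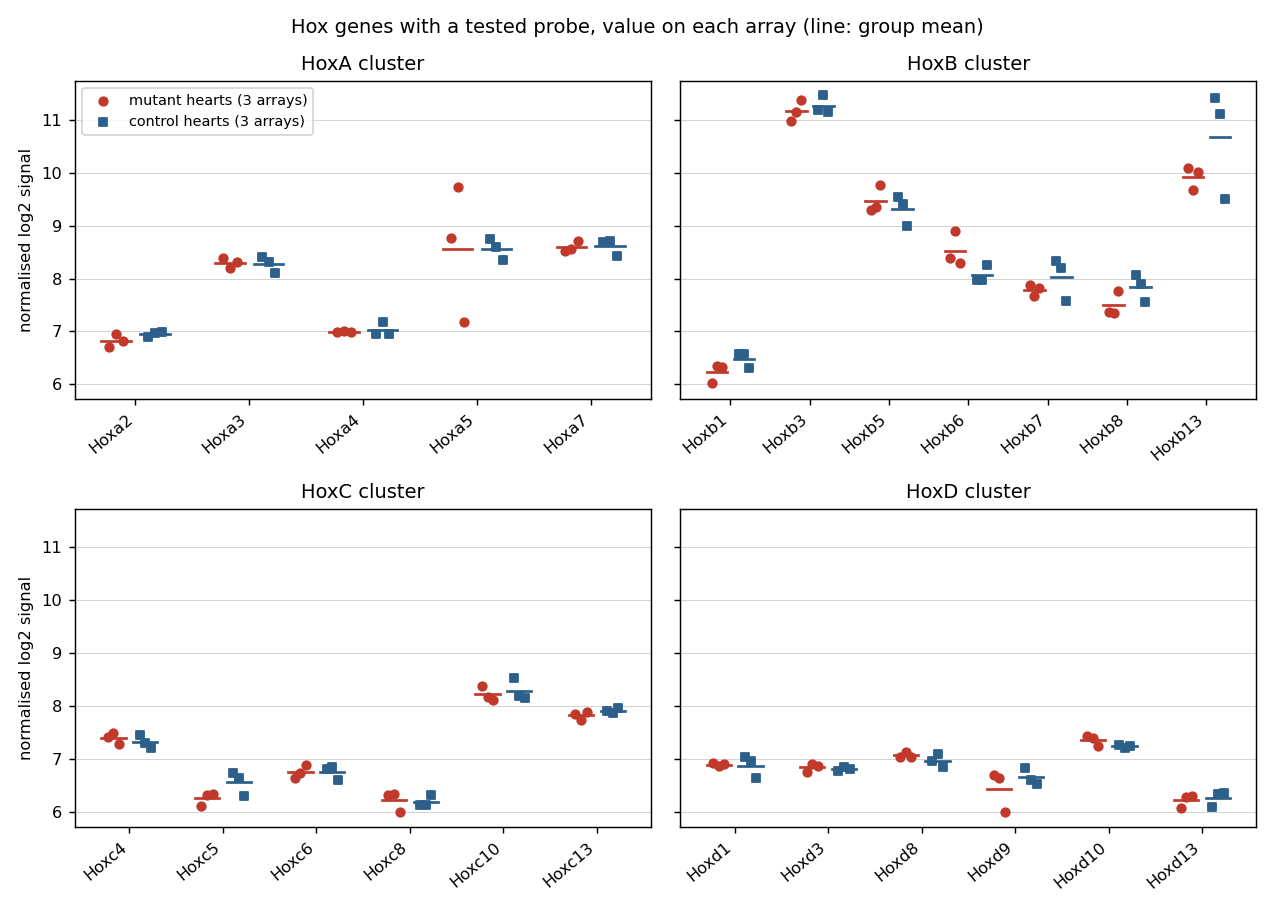
Normalised log2 signal on each array of the 24 tested Hox genes, 1 panel per cluster, with mutant hearts as red circles left of control hearts as blue squares (3 arrays each) and a line at each group mean. The groups overlap in every gene except Hoxb6; levels of different genes come from different probes and are not comparable.

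Of the central genes, Hoxb6, known from lateral plate mesoderm, read 8.38, 8.90 and 8.30 in the mutant hearts, against 7.98, 7.98 and 8.25 in the control hearts. All 3 mutants lay above all 3 controls, although mutant 3 and control 3 were only 0.05 apart. The difference was 0.46 ± 0.18 (SE), or 1.38-fold (95% interval 1.02 to 1.86), with a limma adjusted p of 0.469. It was 0.27 without mutant 2, and the unadjusted p was above 0.05 without mutant 2, control 1 or control 2. Hoxb5, which lies beside it, read 9.30, 9.34 and 9.77 in the mutants, against 9.54, 9.42 and 8.99 in the controls. Its groups overlapped, with a difference of 0.16 ± 0.19. Hoxa7 gave -0.013 ± 0.12 and Hoxc6 0.00064 ± 0.11.

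Hoxb7 and Hoxb8, the next genes towards the 5' end, were higher in control 1 and control 2 than on the other arrays, as was Hoxc5. Hoxb5, Hoxb7, Hoxc5, Hoxb13 and Hoxa5 were chosen for a description by array after their values were seen. Hoxb7 read 7.88, 7.67 and 7.83 in the mutants, against 8.32, 8.20 and 7.57 in the controls. Hoxb8, known for its role in myeloid cells and microglia, read 7.36, 7.34 and 7.77 in the mutants, against 8.07, 7.90 and 7.55 in the controls. Hoxc5 read 6.12, 6.33 and 6.34 in the mutants, against 6.75, 6.64 and 6.31 in the controls. In each of these control 3 lay within or below the range of the mutants. The differences were -0.24 ± 0.20 for Hoxb7, -0.35 ± 0.18 for Hoxb8 and -0.30 ± 0.14 for Hoxc5, with limma adjusted p of 0.701, 0.565 and 0.539.

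Hoxb13 was likewise highest in control 1 and control 2, with a larger range. It read 10.09, 9.67 and 10.02 in the mutant hearts, against 11.40, 11.11 and 9.50 in the control hearts. Control 3 was the lowest of the 6 arrays and control 1 the highest. The difference was -0.75 ± 0.48 (SE), or 0.596-fold with a 95% interval of 0.27 to 1.32 (limma adjusted p = 0.621). Its within-group SD of 0.742 was exceeded by 1.70% of all probes tested. The value rested on single controls: the difference was -0.38 without control 1 and -0.53 without control 2, neither passing. It was -1.33 without control 3, which passed (limma adjusted p = 0.0448). Without control 3, 320 of all probes passed, against 9 with all 6 arrays. Counting as well Hoxb1 and Hoxd1, control 1 and control 2 were the highest arrays in 6 of 24 genes, against 14.8% of all probes.

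Control 1 and control 2 were also the highest arrays in some genes that are no members. Cdx4, one of the caudal homeobox genes that act upstream of Hox genes, read 9.22, 9.04 and 9.87 in the mutants, against 11.0, 10.9 and 9.04 in the controls. Cdx2 read 7.11, 6.77 and 7.09 in the mutants, against 8.04, 8.04 and 6.89 in the controls. Cdx1 was highest in mutant 3 instead. It read 8.51, 8.60 and 9.18 in the mutants, against 9.12, 9.11 and 8.75 in the controls. Of 8 erythroid markers 7 were on the array, 6 of them above background on all 6 arrays and none near background on every array. Their median, relative to each gene's mean, was 0.028, -0.16 and -0.039 in the mutants, against 0.47, 0.22 and -0.16 in the controls. Their summed level in the authors' normalized intensity was 1309, 1331 and 1595 in the mutants, against 1720, 1424 and 1335 in the controls, so that the sum of mutant 3 exceeded that of control 2. The erythroid markers went different ways: Gata1, Alas2, Epor and Klf1 were highest in control 1 and control 2. The globins Hba-x, Hbb-bh1 and Hbb-y were not, with differences of -0.037, 0.082 and -0.11. The sums of 3 other marker lists were highest in control 1 and control 2. The neural and neural crest list, with 8 of 10 markers on the array and 7 of these above background on all 6 arrays, summed to 10.5, 9.16 and 13.7 in the mutants, against 18.5, 16.1 and 10.3 in the controls. The epicardium list, with all 6 markers above background on all 6 arrays, summed to 68.3, 52.8 and 60.4 in the mutants, against 107, 91.9 and 48.5 in the controls. The foregut and lung bud list summed to 8.45, 8.25 and 8.38 in the mutants, against 11.0, 10.9 and 8.28 in the controls. By the median, where each gene counts alike, none of these 3 lists had control 1 and control 2 as its highest arrays. The epicardium list was highest in mutant 2, at 0.16. The neural and neural crest list read -0.066, 0.0024 and -0.017 in the mutants, against 0.012, -0.056 and -0.020 in the controls. The foregut and lung bud list read 0.0064, -0.028 and -0.060 in the mutants, against -0.034, -0.0075 and 0.034 in the controls. The part of these tissues, of blood or of the first principal component in the Hox values was not tested. In whole hearts, fewer cells of a type and less RNA per cell cannot be told apart.

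**Figure D4:**
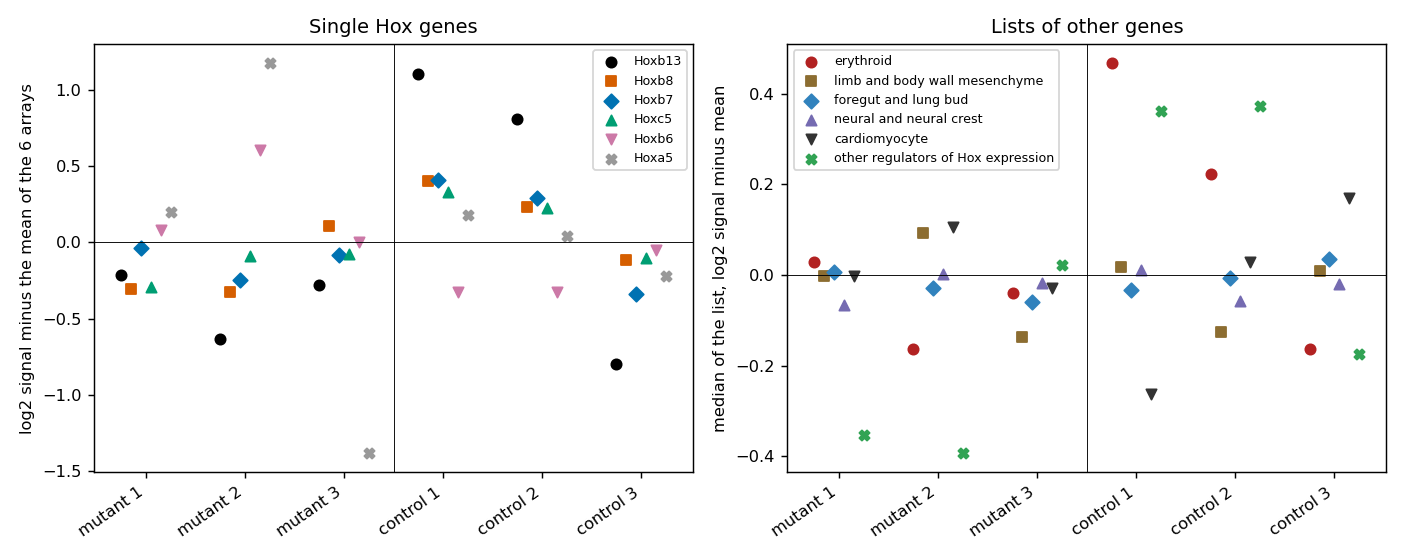
Left, log2 signal of 6 Hox genes on each array minus the gene's mean over the 6 arrays; right, the median of the same quantity over lists of other genes; the vertical line separates mutant arrays (left) from control arrays. Hoxb13, Hoxb7, Hoxb8 and Hoxc5 are highest in control 1 and control 2, as are the erythroid list and the list of other regulators of Hox expression, while control 3 lies within or below the mutants.

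Hoxa5, known from the mesenchyme of the lung and trachea, spread more than any other Hox gene within a group. It read 8.76, 9.74 and 7.18 in the mutant hearts, against 8.74, 8.60 and 8.34 in the control hearts. Mutant 2 was the highest and mutant 3 the lowest of all arrays, and the 3 controls lay between them. The group means were 8.56 ± 1.29 in the mutants and 8.56 ± 0.20 in the controls (SD, n = 3 each), and the 95% interval of the difference ran from 0.375-fold to 2.65-fold. The pooled SD of 0.922 was exceeded by 0.701% of all probes tested. The difference was -0.59 without mutant 2 and 0.68 without mutant 3, and neither passed. Of the foregut and lung bud list 5 of 7 markers on the array were tested, and Shh and Sftpc were near background on all 6 arrays. Its members went different ways: Sox2 was highest in control 1 and control 2, and Epcam in mutant 2. Of the 9 limb and body wall mesenchyme markers 4 were above background on all 6 arrays, and Pitx1, Tbx4 and Alx4 on none. Their summed level was 41.6, 47.6 and 26.3 in the mutants, against 26.7, 29.8 and 34.5 in the controls, so that mutant 3 and control 1 were nearly level. Of the members, Prrx2 was highest in mutant 2 and lowest in control 1. Msx1 and Twist2 were highest in control 2. The part of these tissues in the Hoxa5 values was not tested.

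The posterior genes other than Hoxb13 differed little. Hoxd10 read 7.44, 7.39 and 7.25 in the mutant hearts, against 7.26, 7.20 and 7.25 in the control hearts, a difference of 0.12 ± 0.091 (SE). The lowest mutant lay within the range of the controls. Hoxd9 gave -0.21 ± 0.20 and was lowest in mutant 3, where it was near background. Hoxc10 gave -0.069, Hoxc13 -0.083 and Hoxd13 -0.049. None of these passed, and the groups overlapped in each.

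The Hox genes known as miRNA targets were looked at by themselves, because mature miR-10 and miR-196 depend on Dicer. For miR-196 all 4 genes were tested: the differences were -0.35 for Hoxb8, 0.025 for Hoxc8, 0.099 for Hoxd8 and -0.013 for Hoxa7, with a median of 0.0058. Hoxc8 read 6.32, 6.33 and 6.0 in the mutants, against 6.13, 6.13 and 6.32 in the controls. Hoxd8 read 7.04, 7.13 and 7.04 in the mutants, against 6.97, 7.10 and 6.84 in the controls. Hoxa7 read 8.52, 8.55 and 8.71 in the mutants, against 8.69, 8.72 and 8.42 in the controls. The groups overlapped in all 4, and the 95% intervals reached upwards to 1.06-fold for Hoxb8, 1.25-fold for Hoxc8, 1.26-fold for Hoxd8 and 1.20-fold for Hoxa7. Hoxc8 was near background on some arrays, and the added offset shrinks differences of dim probes, so its interval can understate a change. For miR-10, whose targets among Hox genes are known from zebrafish and human cells, the 4 measured genes had a median of -0.037. They were Hoxa3, Hoxb1, Hoxb3 and Hoxd10, given above. These lists come from general knowledge and not from a search of sequences.

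By cluster, the median difference was -0.013 over 5 tested HoxA genes, -0.24 over 7 HoxB, -0.034 over 6 HoxC and 0.024 over 6 HoxD genes. The array medians of the HoxB genes were -0.21, -0.061 and 0.0034 in the mutants, against 0.22, 0.23 and -0.12 in the controls. Control 3 lay inside the range of the mutants. By position, the medians were -0.0073 for positions 1 to 4, -0.0016 for 5 to 8 and -0.076 for 9 to 13.

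Genes that work with or upstream of the Hox genes did not pass either. Of 18 tested Polycomb genes, which keep Hox genes silent, 0 passed, 13 were above 0 and the median difference was 0.20. The methyltransferase Ezh2 gave 0.53 ± 0.12 (SE), Suz12 0.40 ± 0.15 and Eed 0.31 ± 0.11 (limma adjusted p = 0.215, 0.439 and 0.391). These are the Polycomb genes with an unadjusted p under 0.05, and each was higher on every mutant array than on every control array. Over the list this held for 5 of 18 genes, with Cbx2 and Cbx8, against 9.89% of all probes. Jarid2 alone was lower on every mutant array, against 5.28%. Some gaps were narrow: the lowest mutant and highest control read 9.38 and 9.35 for Suz12, 8.25 and 8.24 for Cbx8, and 6.29 and 6.26 for Cbx2. Cbx2 was above background on 4 arrays. Of 10 trithorax genes, which keep Hox genes active, 0 passed, 8 were above 0 and the median was 0.14. The TALE list holds genes whose homeodomain proteins bind DNA together with Hox proteins, and also Pbxip1, which is not a TALE gene. Of its 7 tested genes 0 passed and the median was 0.095, with Pbx2 at 0.44 ± 0.20 and Meis1 at 0.27 ± 0.15.

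Of 14 retinoic acid genes 0 passed and the median was -0.031. Aldh1a1, an enzyme that makes retinoic acid, gave 0.84 ± 0.16 (SE) with a limma adjusted p of 0.165, and the receptor gene Rarb 0.46 ± 0.18 with 0.461. Aldh1a2, the main such enzyme of the embryo, gave -0.17 ± 0.13. Crabp2 had the lowest difference of the list, -0.48 ± 0.23. Of 7 other regulators of Hox expression 0 passed, 2 were above 0 and the median was -0.24. Cdx4 had the lowest difference, -0.94 ± 0.54, beside Cdx2 at -0.67 ± 0.32 and the hindbrain segmentation gene Egr2 at -0.81 ± 0.26, which had the smallest limma adjusted p of the list (0.357). Gmnn went the other way, at 0.29 ± 0.16, with a smaller unadjusted p than Cdx4. Without adjustment, 3 of 18 Polycomb genes, 2 of 14 retinoic acid genes and 1 of 7 other regulators had a p under 0.05. So had 0 of 10 trithorax genes and 0 of 7 genes of the TALE list. Of all probes 10.0% had one. Higher on every mutant array were 2 of 14 retinoic acid genes, against 9.89% of all probes. That held for 0 of 10 trithorax genes, 0 of 7 TALE list genes and 0 of 7 other regulators. Lower on every mutant array were 1 trithorax gene and 1 other regulator, against 5.28% of all probes, and 0 genes of the retinoic acid and TALE lists.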

How the data were processed

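Per the file headers, each deposited file gives a spot's mean intensity, local background median intensity, subtracted and normalized intensity and a quality flag. Subtracted intensity equalled spot mean minus background (largest difference 1e-04). The series' value table repeats the authors' normalized intensity on good spots, with column medians of 1.83 to 2.06 on a linear scale; the labels do not say how it was normalized. Labels were biotin with the CodeLink protocol. Symbols matched RefSeq (GRCm38.p6) by gene number for all 34 Hox probes.

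With limma 3.58.1 (R 4.3.3), normexp with an offset of 50 corrected the spot means, and log2 values were quantile-normalized over the 21880 listed probes. Probes above background on at least 3 of 6 arrays were tested, two-sided, with lmFit and eBayes, Benjamini-Hochberg over 17727 probes, brightest probe per gene. On simulated data for this comparison (17695 probes), 71% of 2-fold and 91% of 4-fold changes were called, with 5.26% of calls on unchanged probes. The simulated noise was drawn independently for each probe and array. It lacked the structure that probes share over the real arrays. The simulated data also held more changed probes than the 9 that passed on the real arrays, which eases the Benjamini-Hochberg threshold. For both reasons these shares need not hold for the real arrays. The number of arrays limits precision.

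Hox genes named with array values were those not overlapping, those with an unadjusted p under 0.05, the known miRNA targets, and Hoxa2, Hoxa3 and Hoxb1. Other Hox genes are said to be chosen afterwards. Cdx1, Cdx2, Cdx4 and Hoxb5os were given by array outside this rule. Members and lists were chosen with earlier results of these data known. Same-numbered arrays in the titles did not deviate together: the correlations were 0.014, -0.48 and -0.38. Some differently numbered arrays did: mutant 2 with control 3 gave 0.56, and mutant 3 gave 0.33 with control 1 and 0.35 with control 2. The lowest such value was -0.50, for mutant 2 with control 1. Deviations were taken from each group's mean, so these correlations are not independent of each other.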

Additional observations from a re-analysis of the deposited data

How the results depend on the processing

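Of 17 alternatives, the 16 planned ones included other background corrections, scalings, filters, blocks and each array left out; leaving out mutant 3 and control 3 together was chosen after seeing the data. Between 16 and 17 values were run for each tested Hox gene, 403 in all. Of these 8 passed, 42 changed sign without a call, and no call reversed; 11 genes kept their sign throughout. The count of Hox genes that passed, 0, rose with the first part of the titles as a block, read as a slide although no label says so. That block compares mutants 1 and 2 with control 1 alone, so only differences of Hox genes are given: Hoxb8 was at -0.72 and Hoxb13 at -1.53. The count over all probes rose as well. With single arrays left out, the count of Hox genes ran from 0 to 1 of 24. The 1 was Hoxb13 without control 3, where 320 of 17727 probes passed. It was 5 of 24 without mutant 3 and control 3, where 3921 of 17727 probes passed. The 5 were Hoxb6 at 0.67, Hoxb7 at -0.49, Hoxb8 at -0.63, Hoxb13 at -1.38 and Hoxc5 at -0.47. The adjusted p of Hoxb6 ran from 0.034 to 0.996 over its settings. With the number in the titles as a replicate block, 0 Hox genes passed in limma and 0 had an unadjusted p under 0.05; these samples share only a number. Over all probes the count of 9 became 5 with the subtracted intensity, 4 with the authors' normalized intensity, 5 with the value table, 5 with the mean of a gene's probes, 0 with the replicate block (1322 at an unadjusted p under 0.05) and 1339 with the slide. It ran from 0 to 320 with single arrays left out, the 320 without control 3. The authors' normalized intensity was floored at 0.1 and had no offset added. With it some dim genes moved further from 0, to -0.79 for Hoxb1, -0.81 for Hoxc5 and -0.71 for Hoxd9. Hoxa2 and Hoxd13 moved less, to -0.26 and -0.18, and Hoxc8, Hoxd1 and Hoxd3 did not move further from 0. In the value table, which leaves out spots near background, Hoxb1, Hoxc5 and Hoxd9 were at -0.38, -0.54 and -0.015. None passed.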

Other observations

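The clusters also carry antisense transcripts, which were no members. Hoxd3os1, with 2 probes, and Hoxaas3 were near background on all 6 arrays, and Hoxb5os was above background on 1 array, mutant 2, so none was tested. Mutant 2 was the array on which Hoxa5 and Hoxb6 were highest. Hoxb5os read 6.14, 6.37 and 5.97 in the mutant hearts, against 5.80, 6.05 and 5.91 in the control hearts.

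Neighbouring HoxB genes were ordered differently over the arrays. Hoxb6 was lowest in control 1 and control 2, where Hoxb7 and Hoxb8 were highest.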
